A study of Mus musculus with 6 samples.

Results

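The 9 genes described here are Dcx, Igfbpl1, Neurod1, Sox4, Sox11, Stmn1, Draxin, Calb2 and Nes. They are linked to the birth of neurons in the adult hippocampus and were selected by name from the 23282 rows of the deposited gene tables. All 9 had a row in the tables. The study profiled hippocampal RNA of C57BL/6 mice aged 16 weeks by 3′ end sequencing, which reads about 1 tag per transcript. Mice of the genotype PHF2 t/g were compared with wild-type (WT) mice, each group with 3 libraries. PHF2 is a demethylase of histone H3 lysine 9; the label t/g is read here as a Phf2 transgene, and its promoter, construct and founder line are not stated in the labels. The labels do not say whether the libraries came from separate animals, and a p-value here is set against a spread among libraries that may be technical.

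New granule neurons are made throughout adult life in the subgranular zone of the dentate gyrus. Radial glia-like stem cells, which hold the intermediate filament nestin (Nes), divide to give progenitors and then neuroblasts, which switch on Neurod1, Sox4, Sox11, Igfbpl1 and Dcx, extend processes with the help of tubulin regulators such as Stmn1, and pass through a stage marked by calretinin (Calb2) before they mature. These cells are few among the granule and pyramidal neurons, and several of the genes are also used by other hippocampal cells. Examples are Calb2 in interneurons and mossy cells, Nes in cells of blood vessels and Sox4 in oligodendrocyte precursors. For none of the genes was the part of its level that comes from newborn neurons tested.

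The libraries held 5512171 to 8844718 counts, and levels are given as CPM, counts per 1000000 counts of the library after TMM scaling. Of 12831 genes that passed the low-count filter, 291 (2.27%) passed edgeR's quasi-likelihood test at an adjusted p of 0.05, 100 higher (0.779%) and 191 lower (1.49%) in PHF2 t/g. The groups did not overlap in 20.6% of tested genes, 10.1% with PHF2 t/g higher and 10.4% with it lower. Without PHF2 t/g replicate 1, 2 or 3 the 291 became 49, 106 or 116. The alternative test DESeq2 gave an adjusted p to 6234 genes only. A gene without one could not pass by DESeq2, which limits the DESeq2 counts given for the gene lists below. Phf2 itself was read at 38.7 ± 3.96 CPM in PHF2 t/g and 37.7 ± 1.92 in WT (SD, n = 3; edgeR adjusted p = 0.929); tags of the endogenous 3′ end may miss a transgene, and the level is therefore no check of the genotype. The summed level of 12 hippocampal neuron markers was 1893 to 2093 CPM in PHF2 t/g and 1980 to 2284 CPM in WT.

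Of the 9 genes, 8 passed the low-count filter and 1, Draxin, did not. Sox4 alone passed the test, and it fell; 7 tested members did not pass. The groups did not overlap in 4 of the 9 genes: Sox11 was higher in PHF2 t/g, and Sox4, Stmn1 and Nes were lower. The main contrast within the group was between the paralogs Sox4 and Sox11, whose order by level was reversed in PHF2 t/g, while Dcx and Neurod1 differed between genotypes by less than the spread of their libraries. Over the 8 tested genes the median log2 fold change was −0.03, against 0.02 over all tested genes, and 5 had an unadjusted p under 0.05, as did 14.7% of all tested genes.

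**Figure D1:**
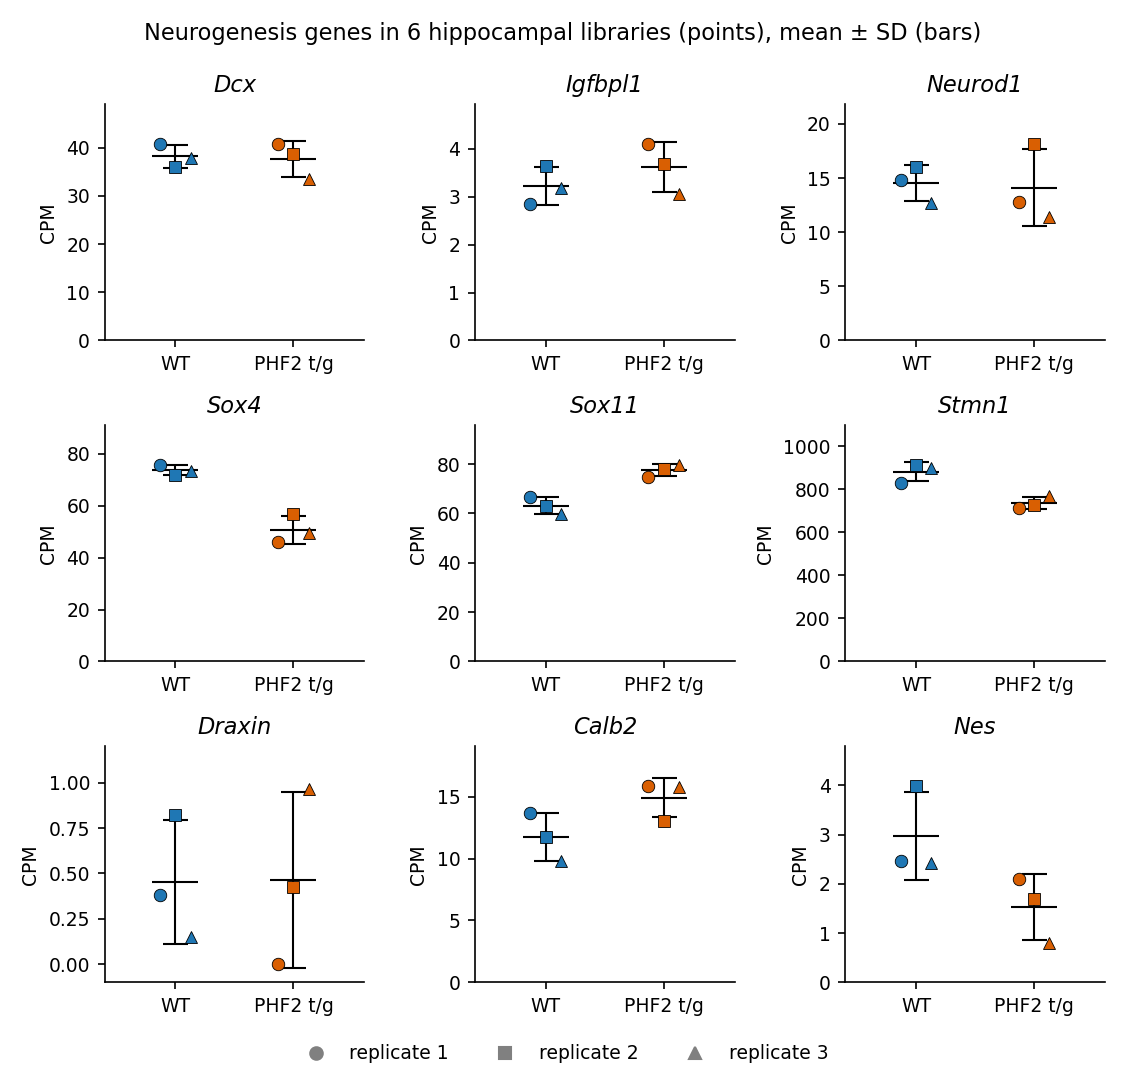
Level of each gene in CPM (vertical axes, from 0 except for Draxin) in the 3 WT and 3 PHF2 t/g libraries; points are libraries, symbols their replicate numbers, and bars the mean ± SD. Sox4 lies at 46.0 to 56.7 CPM in PHF2 t/g against 71.9 to 75.8 in WT, and Sox11 at 74.8 to 79.8 against 59.9 to 66.6.

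Sox4 and Sox11 are SoxC transcription factors, which bind DNA through an HMG box and activate neuronal genes such as Dcx and Tubb3 in differentiating neurons. Both are genes of 1 exon: Sox4 lies on chromosome 13 (28948919 to 28953699, GRCm38, minus strand) and Sox11 on chromosome 12 (27334268 to 27342718, minus strand). Since the results turn on this pair, the 250 bases before their annotated starts are shown (RefSeq, GRCm38.p6, minus strand; chr13:28953700-28953949 for Sox4 and chr12:27342719-27342968 for Sox11), 5′ to 3′, with each CCAAT, or ATTGG where it lies on the other strand, in capitals.
Sox4: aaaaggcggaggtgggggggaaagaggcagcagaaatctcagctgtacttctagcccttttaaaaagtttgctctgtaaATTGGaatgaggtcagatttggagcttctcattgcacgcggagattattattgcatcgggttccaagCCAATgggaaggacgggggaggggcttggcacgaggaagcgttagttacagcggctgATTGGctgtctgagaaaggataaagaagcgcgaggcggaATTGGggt
Sox11: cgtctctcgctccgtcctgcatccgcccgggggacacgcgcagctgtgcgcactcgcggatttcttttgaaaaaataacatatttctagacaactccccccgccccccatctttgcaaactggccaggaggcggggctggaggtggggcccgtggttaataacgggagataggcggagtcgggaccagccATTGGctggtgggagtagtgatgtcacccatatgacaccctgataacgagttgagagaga
CCAAT is the core of the element bound by the factor NF-Y. On either strand, it occurred at 4 positions before Sox4, which began 171, 104, 47 and 8 bases before the start, and at 1 position before Sox11, 60 bases before it. Of 32851 RefSeq promoter windows of this length, 33.8% held at least 1 CCAAT and 0.84% held it at 4 or more positions. The E-box CANNTG, the site type of Neurod1, occurred at 1 position before Sox4 and at 2 before Sox11, and in 66.2% of all windows; AACAAT, a sequence bound by Sox factors, was in neither window and in 9.42% of all. The Sox4 window held 11 CpG and the Sox11 window 17, where the median window held 6. These matches describe the letters only.

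Sox4 was read at 75.8, 71.9 and 73.4 CPM in WT replicates 1, 2 and 3 and at 46.0, 56.7 and 49.4 CPM in PHF2 t/g replicates 1, 2 and 3. All 3 PHF2 t/g libraries lay below all 3 WT libraries, and the nearest libraries of the 2 groups were at 56.7 and 71.9 CPM. The mean fell from 73.7 ± 1.94 to 50.7 ± 5.46 CPM, a log2 fold change of −0.54 (SE 0.102, 95% interval −0.76 to −0.33; edgeR adjusted p = 0.00764), or 0.687 of the WT level. The exact two-sided permutation test of the 6 libraries gave p = 0.1, the smallest that 3 against 3 allow. In bulk tissue, fewer cells that use a gene and less of its RNA per cell cannot be told apart. Sox4 passed the test in 15 of 16 alternative fits (log2 fold change −0.63 to −0.44, edgeR, limma and DESeq2 adjusted p 1.05e-04 to 0.117); without PHF2 t/g replicate 1 it did not (−0.47; edgeR adjusted p = 0.117). The noncoding gene Gm26735 overlaps the Sox4 exon on the opposite strand in GENCODE M21; it has no row in the tables, and the strand setting of the counting is unknown here; tags from it could be counted as Sox4. Markers of oligodendrocyte precursors and new oligodendrocytes, cells that also use Sox4, summed to 212 to 227 CPM in PHF2 t/g against 232 to 264 in WT; without Bcas1 the groups overlapped, at 140 to 147 against 145 to 160 CPM. None of these 10 markers passed with edgeR, DESeq2 or limma-voom, and 3 had an unadjusted p under 0.05: Bcas1 (−0.33) and Olig2 (−0.47) were lower and Pdgfra (0.38) higher. Their part in the Sox4 values was not tested.

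Sox11 was read at 66.6, 63.0 and 59.9 CPM in WT and at 74.8, 78.2 and 79.8 CPM in PHF2 t/g. The PHF2 t/g libraries were all above the WT libraries, the opposite of Sox4, but the difference was smaller. It averaged 63.2 ± 3.36 CPM in WT and 77.6 ± 2.54 CPM in PHF2 t/g, a log2 fold change of 0.30 (SE 0.0931, 95% interval 0.10 to 0.49; edgeR adjusted p = 0.107), which did not pass. With library size alone as the scaling it passed (0.40; edgeR adjusted p = 0.0301), the only 1 of 16 alternative fits in which it did.

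The ratio of Sox4 to Sox11 counts within a library does not depend on how libraries are scaled. It was 1.14, 1.14 and 1.22 in the WT libraries and 0.614, 0.724 and 0.619 in the PHF2 t/g libraries. Sox4 thus gave more tags than Sox11 in each WT library and fewer in each PHF2 t/g library, with a wide gap between the groups. Separation of the groups by this ratio was fixed by the levels above. Sox4 was lower and Sox11 higher in every PHF2 t/g library than in every WT library. The pair was also chosen with earlier results of these data known. The ratio averaged 1.17 ± 0.0493 in WT libraries and 0.652 ± 0.0621 in PHF2 t/g, a difference of −0.84 in log2 ratio, and −0.92 to −0.80 with 1 library left out. By exact two-sided permutation p was 0.1, the smallest possible here, and 0.2 after Benjamini-Hochberg adjustment over the 6 ratios computed. With the groups apart in opposite directions for Sox4 and Sox11, the unadjusted p could only be 0.1. It therefore adds no evidence to the tests of the genes themselves, and the ratio describes the size of the contrast only. The third SoxC gene, Sox12, was at 10.4 ± 1.15 CPM in WT and 10.2 ± 0.825 in PHF2 t/g and did not pass (log2 fold change −0.02; edgeR adjusted p = 0.97).

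**Figure D2:**
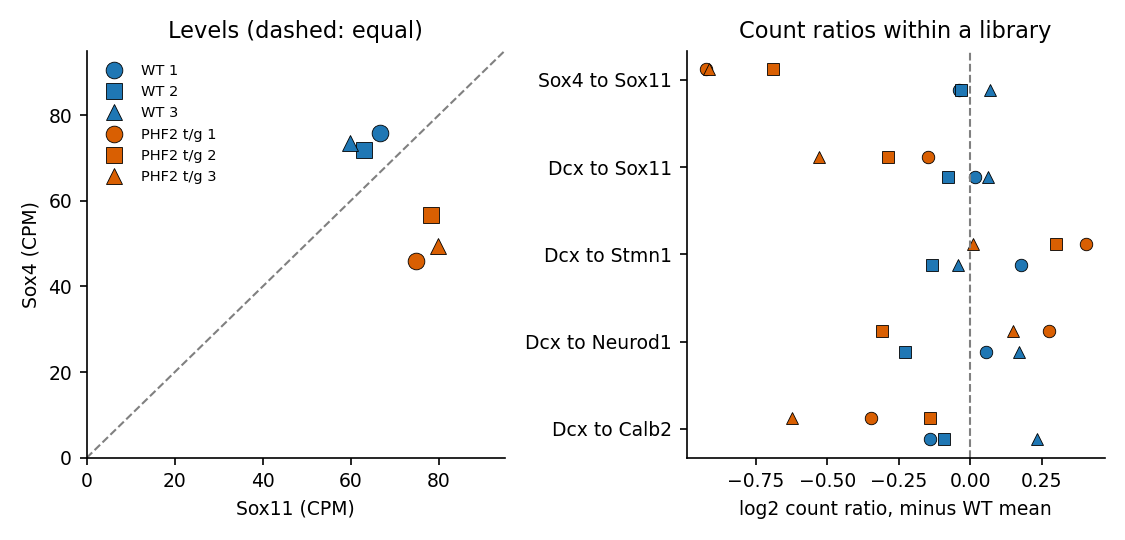
Left, Sox4 against Sox11 in CPM, 1 point per library, with the dashed line at equal levels; the 3 WT libraries lie above it and the 3 PHF2 t/g libraries below. Right, log2 ratio of counts of 2 genes within each library minus the WT mean (horizontal axis) for 5 gene pairs; the Sox4 to Sox11 ratio of PHF2 t/g libraries lies apart from WT, by −0.84 on average, while the groups overlap for Dcx to Neurod1.

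Dcx (chromosome X, 143855842 to 143933396, minus strand), or doublecortin, is a microtubule-binding protein of migrating neuroblasts and young neurons and the usual marker of adult neurogenesis. It was read at 40.7, 36.1 and 37.8 CPM in WT and at 40.9, 38.8 and 33.5 CPM in PHF2 t/g, so that the highest and the lowest library were both PHF2 t/g. The means were 38.2 ± 2.35 and 37.7 ± 3.81 CPM, a log2 fold change of −0.01 (SE 0.114; edgeR adjusted p = 0.972). The 95% interval ran from 0.839 to 1.17 of the WT level, and a change inside it is not excluded by these libraries. The interval is not the test's limit of detection: Sox11, at 1.23 of its WT level and with a smaller SE (0.0931), did not pass. In 3 of 16 alternative fits the sign was the opposite, and with library size alone the value was 0.09. The ratio of Dcx to Sox11 counts was 0.611, 0.573 and 0.631 in WT and 0.546, 0.495 and 0.419 in PHF2 t/g, lower without overlap (log2 difference −0.32; exact permutation p = 0.1, adjusted 0.2). The ratio of Dcx to Stmn1 counts overlapped, at 0.0395 to 0.0490 in WT and 0.0436 to 0.0574 in PHF2 t/g (log2 difference 0.24; exact permutation p = 0.2, adjusted 0.3).

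Igfbpl1, a secreted relative of the insulin-like growth factor binding proteins found in neuroblasts (chromosome 4, 45809507 to 45826827, minus strand), was a low gene here, with 15 to 37 counts per library. It was read at 2.86, 3.64 and 3.18 CPM in WT and at 4.11, 3.69 and 3.06 CPM in PHF2 t/g. The libraries overlapped, and the log2 fold change of 0.16 did not pass (SE 0.283, 95% interval −0.43 to 0.76; edgeR adjusted p = 0.844). Neurod1, a basic helix-loop-helix factor needed for the survival and maturation of new granule neurons (chromosome 2, 79452637 to 79456636, minus strand), was read at 14.8, 16.0 and 12.7 CPM in WT. In PHF2 t/g it was at 12.8, 18.2 and 11.4 CPM, a wider spread with both extremes of the 6 libraries. Its log2 fold change of −0.04 did not pass (SE 0.179, 95% interval −0.42 to 0.33; edgeR adjusted p = 0.94). The ratio of Dcx to Neurod1 counts was 2.74, 2.26 and 2.98 in WT and 3.20, 2.13 and 2.93 in PHF2 t/g, fully overlapping (exact permutation p = 0.8). The gene Cerkl overlaps Neurod1 on the same strand, but its own row held 0 to 2 counts per library. The noncoding gene Gm26755 overlaps the last exon of Neurod1 on the opposite strand in GENCODE M21 and has no row of its own. Tags from Gm26755 could be counted as Neurod1. Of the other NeuroD genes, Neurod2 was far more abundant, at 570.5 ± 26.6 CPM in WT and 531 ± 59.4 in PHF2 t/g (log2 fold change −0.10; edgeR adjusted p = 0.63).

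Stmn1, stathmin, which binds tubulin dimers and promotes microtubule turnover, was the most abundant of the 9 genes (chromosome 4, 134468320 to 134473843, plus strand). It was read at 830.5, 913 and 899 CPM in WT and at 712, 726 and 767 CPM in PHF2 t/g. The PHF2 t/g libraries were all lower, by a modest amount: the log2 fold change was −0.26 (SE 0.0755, 95% interval −0.42 to −0.10; edgeR adjusted p = 0.0816) and did not pass. It passed with DESeq2 (−0.27; DESeq2 adjusted p = 0.0287) and without the low-count filter (−0.27; edgeR adjusted p = 0.0419). Among the other stathmins, Stmn4 fell from 1213 ± 79.9 to 798 ± 48.3 CPM (log2 fold change −0.61; edgeR adjusted p = 3.13e-04) and passed in all 16 alternative fits. Stmn2 and Stmn3, of the same family, did not pass (−0.11 and −0.16; edgeR adjusted p = 0.55 and 0.326), although both were lower in PHF2 t/g without overlap.

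Calb2, calretinin, is a calcium-binding protein of a short stage after the last division of new granule neurons, and of mossy cells and a class of interneurons (chromosome 8, 110142526 to 110168212, minus strand). It was read at 13.7, 11.7 and 9.84 CPM in WT and at 15.9, 13.1 and 15.8 CPM in PHF2 t/g. WT replicate 1 lay above PHF2 t/g replicate 2, so the groups overlapped, and the log2 fold change of 0.35 did not pass (SE 0.167; edgeR adjusted p = 0.34; unadjusted p = 0.0499). Of 10 markers of interneurons of this kind, Penk rose (log2 fold change 0.72; edgeR adjusted p = 0.00162) and 9 did not pass, and the summed level of all 10 was 720 to 781 CPM in PHF2 t/g against 670 to 687 in WT. Penk, which is also abundant in striatum, carried that difference: it was at 219 to 255 against 119 to 162 CPM, and the other 9 markers summed to 501 to 527 against 525 to 552 CPM, overlapping and lower in PHF2 t/g at both ends. The sum of 8 mossy cell markers was lower, at 226 to 250.5 CPM against 282 to 292, most of it from Ajap1, without which the groups overlapped (26.6 to 30.6 against 25.7 to 30.3 CPM); of 6 tested none passed in edgeR or limma-voom, 1 did by DESeq2, and 1 had an unadjusted p under 0.05. Drd2, a defining mossy cell marker, had 0 to 3 counts per library. The ratio of Dcx to Calb2 counts was 2.97, 3.07 and 3.85 in WT and 2.57, 2.97 and 2.12 in PHF2 t/g, with the nearest libraries almost equal (log2 difference −0.37; exact permutation p = 0.1, adjusted 0.2). The part of these cells in the Calb2 values was not tested.

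Draxin is a secreted guidance protein that binds the netrin receptor DCC and netrin itself (chromosome 4, 148098437 to 148131139, minus strand). It was close to the limit of detection, with 2, 7 and 1 counts in WT and 0, 3 and 6 in PHF2 t/g, and was not tested. The 0 in PHF2 t/g replicate 1 allows up to 0.333 CPM, from 3 counts. Over the groups there were 9 and 10 counts, a ratio of 0.824 in PHF2 t/g to WT with a 95% interval of 0.296 to 2.26, which covers counting error only. Its receptors were readily detected: Dcc, at 16.7 ± 2.51 CPM in WT and 19.1 ± 3.08 in PHF2 t/g, and Neo1, at 123 ± 3.30 and 113 ± 2.95 CPM, did not pass. None of the 10 genes of the draxin and netrin list passed in edgeR, DESeq2 or limma-voom, and 2 had an unadjusted p under 0.05. The median log2 fold change was 0.23, against 0.02 over all tested genes. For Unc5a, Lrp6, Lrp5 and Ntn1, all above 0, WT replicate 2 was the lowest of the 6 libraries. Unc5a was at 82.6, 22.8 and 66.9 CPM in WT replicates 1, 2 and 3, and Lrp6 at 32.4, 14.2 and 27.1 CPM. For Dcc and Unc5d, also above 0, it was not the lowest. The netrin receptor Unc5b was lower by −0.42 and its relative Unc5d higher by 0.43 (edgeR adjusted p = 0.0673 and 0.0725), with no overlap between groups in either. Unc5b passed without WT replicate 2 (−0.51; edgeR adjusted p = 0.00651), Unc5d with library size alone (0.54; edgeR adjusted p = 0.0301), and both without the low-count filter (edgeR adjusted p = 0.0148 and 0.0499).

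Nes was read at 2.47, 3.99 and 2.42 CPM in WT and at 2.11, 1.70 and 0.804 CPM in PHF2 t/g (chromosome 3, 87971093 to 87980451, plus strand). The groups did not overlap, but the counts were few, 63 over WT and 36 over PHF2 t/g. Its log2 fold change of −0.92 had a wide 95% interval of −1.73 to −0.12 and did not pass (SE 0.383; edgeR adjusted p = 0.256). In 15 alternative fits that gave it an adjusted p it stayed negative (−1.24 to −0.61) and did not pass. Of 15 endothelial and mural markers, cells that can also hold nestin, Vwf, Flt1 and Ly6c1 rose (log2 fold change 2.21, 0.48 and 0.67), 0 fell and 12 did not pass. Of all tested genes 0.779% rose. Cldn5, a tight junction protein of endothelial cells, was lower without overlap and did not pass (−0.60; edgeR adjusted p = 0.0791). The list's median log2 fold change was 0.35, against 0.02 over all tested genes, and 6 of its 15 genes lay below 0. Without overlap 6 were higher and 1 lower (10.1% and 10.4% of all tested genes). An unadjusted edgeR p under 0.05 was found for 7 of the 15, against 14.7% of all tested genes. The summed level was 214 to 226 CPM in PHF2 t/g against 177 to 201 in WT. The part of these cells in the Nes values was not tested. Vwf did not pass without PHF2 t/g replicate 1 (edgeR adjusted p = 0.064). Flt1 passed in 10 of 16 alternative fits and Ly6c1 in 7 of 15, and neither did with any 1 PHF2 t/g library or WT replicate 3 left out.

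**Figure D3:**
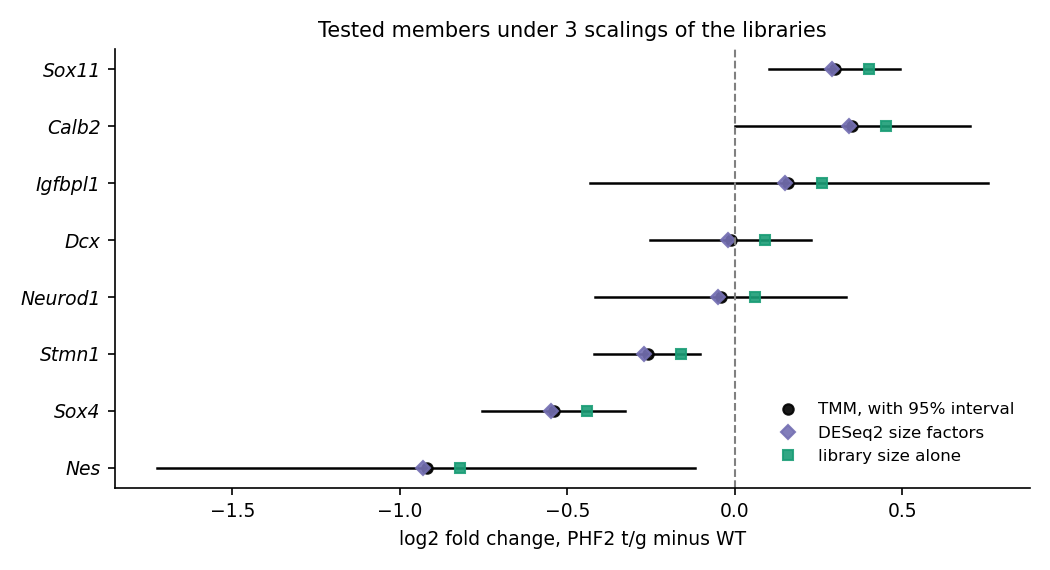
Log2 fold change, PHF2 t/g minus WT (horizontal axis), of the 8 tested genes with TMM (circles, with 95% intervals), DESeq2's size factors (diamonds) and library size alone (squares). Library size alone moves each gene to the right by about the same step; Sox4 stays below 0 and Sox11 above 0 with each scaling, while Dcx and Neurod1 change sign.

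By level, Stmn1 stood above the other members in both genotypes, and Dcx next below Sox4 and Sox11. In WT, Sox4 (71.9 to 75.8 CPM) stood above Sox11 (59.9 to 66.6), and in PHF2 t/g Sox11 (74.8 to 79.8) stood above Sox4 (46.0 to 56.7), without overlap in either genotype. The ranges of Neurod1 and Calb2 overlapped in both genotypes; within libraries Neurod1 was above Calb2 in 3 of 3 WT libraries, and Calb2 above Neurod1 in 2 of 3 PHF2 t/g libraries. The ranges of Igfbpl1 and Nes overlapped in WT, with Igfbpl1 above in 2 of 3 libraries, and those of Nes and Draxin in PHF2 t/g, with Nes above in 2 of 3. These levels compare genes because a 3′ tag is read about once per transcript whatever its length, but tags lost to unannotated 3′ ends differ by gene.

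The other genes of the pathway were read from lists that follow its stages. Of 24 stem cell and radial glia genes, 21 were tested, 0 rose and 1 fell; the median log2 fold change was −0.01, against 0.02 over all tested genes. The gene that fell was Sox2, a SoxB factor that maintains neural stem cells and is also present in astrocytes, from 30.9 ± 2.59 to 20.5 ± 2.72 CPM (log2 fold change −0.59; edgeR adjusted p = 0.0225). Sox2 did not pass with library size alone (edgeR adjusted p = 0.0625), in a fit that was not robust (0.0518), or when PHF2 t/g replicate 1 (0.181), PHF2 t/g replicate 3 (0.123) or WT replicate 3 (0.0608) was left out. Its SoxB relatives Sox1 and Sox21 did not pass and lay above 0 (0.10 and 0.27). Of the 21 tested genes of this list, 4 had an unadjusted edgeR p under 0.05: Sox2, Lpar1, Hes5 and Emx2, each lower. Without overlap 5 were lower and 2 higher (10.4% and 10.1% of all tested genes).

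Of 20 proliferation genes 14 were tested, and 0 passed in edgeR, DESeq2 or limma-voom. DESeq2 gave no adjusted p for at least 1 of them, Hmgb2. The list's median of −0.04 was 0.07 with library size alone. Of the 14, 9 lay below 0 (46.1% of all tested genes did), and 3 with library size alone. The sum of all 20 was lower, by a narrow gap, at 256.8 to 272.6 CPM in PHF2 t/g against 273.0 to 300.2 in WT. Ccnd2 held 124 to 135 against 131 to 167 CPM of it. In this list 1 gene had an unadjusted p under 0.05. The cyclin gene Ccnd2 (log2 fold change −0.20) had the smallest p (edgeR adjusted p = 0.329; unadjusted p = 0.0465). Hmgb2, a chromatin protein of dividing cells, was the next (−0.48; edgeR adjusted p = 0.408). Mki67, the antigen Ki-67 of dividing cells, had 22 counts over PHF2 t/g and 23 over WT, too few for a test. Of 15 neuroblast and intermediate progenitor genes 10 were tested and 0 passed in edgeR, DESeq2 or limma-voom, also 0 at an unadjusted p under 0.05. The median was −0.08 (0.02 with library size alone), and 8 of the 10 lay below 0 (5 with library size alone). Elavl2 and Tbr1 had the smallest p (−0.16 and −0.13; edgeR adjusted p = 0.378 and 0.536). Eomes, which defines intermediate progenitors, had at most 2 counts in any library, and Neurog2 at most 7.

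Of 26 immature neuron genes 24 were tested, and 2 fell, 0 rose and 22 did not pass, with a median of 0.01. The sum of all 26 was lower, at 6253 to 6448 CPM in PHF2 t/g against 7016 to 7474 in WT. Stmn4 held 762 to 853 against 1146 to 1302 CPM of it. Without overlap 5 tested genes were lower and 1 higher (10.4% and 10.1% of all tested genes). An unadjusted edgeR p under 0.05 was found for 6. The genes that fell were Stmn4, above, and Tubb3, the neuron-specific beta-tubulin, from 442 ± 9.23 to 340 ± 22.3 CPM (log2 fold change −0.38; edgeR adjusted p = 0.0121). Tubb3 did not pass with library size alone (edgeR adjusted p = 0.0647) or without PHF2 t/g replicate 1 (0.126) or replicate 3 (0.0839). Both are used by mature neurons as well. The relatives of Dcx, Dclk1 and Dclk2, did not pass (0.05 and 0.30). Of 10 mature granule neuron genes 9 were tested and 0 passed in edgeR, DESeq2 or limma-voom, with 2 at an unadjusted p under 0.05. Plk5 had the smallest p (log2 fold change −0.25; edgeR adjusted p = 0.231), followed by Calb1, calbindin, which replaces calretinin in mature granule neurons (0.21; edgeR adjusted p = 0.325).

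Of 24 names in a list of niche signals 23 were in the tables and 19 were tested, of which 1 rose, 1 fell and 17 did not pass. An unadjusted edgeR p under 0.05 was found for 7 of the 19, against 14.7% of all tested genes. Without overlap 4 were higher and 3 lower (10.1% and 10.4% of all tested genes). Vegfa, a vascular growth factor that also acts on neural progenitors, rose from 50.3 ± 3.39 to 79.5 ± 2.55 CPM (log2 fold change 0.66; edgeR adjusted p = 9.08e-04), with a call in all 16 alternative fits. Wnt7b, a Wnt ligand, fell from 121 ± 16.9 to 87.9 ± 6.48 CPM (−0.46; edgeR adjusted p = 0.0241). Wnt7b passed in 8 of 16 alternative fits; it did not by limma-voom, with library size alone or in a fit that was not robust, nor with any 1 PHF2 t/g library or WT replicate 1 left out (edgeR adjusted p up to 0.219).

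**Figure D4:**
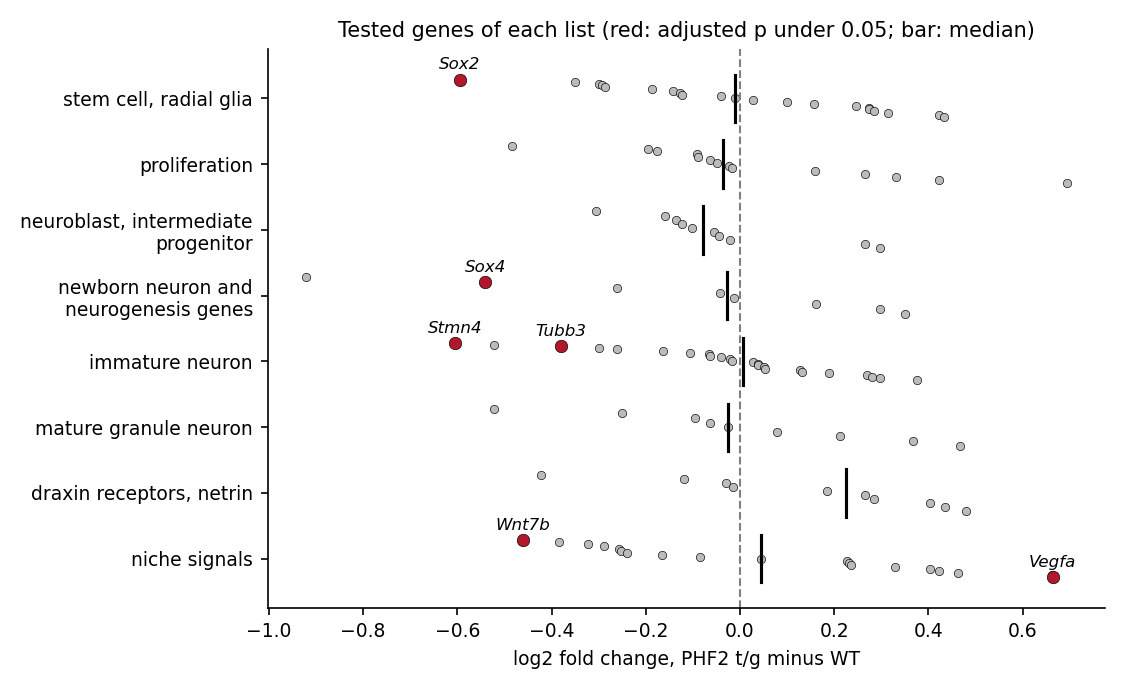
Log2 fold change, PHF2 t/g minus WT (horizontal axis), of the tested genes of each list (vertical axis); each point is a gene, red and named where the adjusted p is under 0.05, and the black bar is the list's median. The medians of the lists lie between −0.08 and 0.23, and the 2 genes named in the immature neuron list, Stmn4 and Tubb3, lie below 0.

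Some markers of granule neurons of the dentate gyrus, the site of neurogenesis, varied widely between libraries, while others of the same list did not: Calb1 ran from 47.4 to 58.1 CPM and Ntng1 from 33.3 to 38.9 CPM over the 6 libraries. Dsp, a desmosomal protein of granule neurons, was at 4.76, 2.23 and 0 CPM in WT and at 2.78, 2.84 and 0.322 CPM in PHF2 t/g, and C1ql2, a synaptic protein of granule neurons, was at 5.33, 6.58 and 1.36 CPM and at 6.00, 9.80 and 1.29 CPM. Replicate 3 was thus the lowest of its group in both genotypes for both genes. This was not confined to granule neuron markers. Of the other hippocampal neuron markers, Fibcd1, Neurod6, Cpne7, Bok and Zbtb20 were also lowest in replicate 3 of both genotypes. Fibcd1 was at 40.9, 29.0 and 13.8 CPM in WT and at 16.5, 21.2 and 7.88 CPM in PHF2 t/g. Wfs1, Mpped1, Grp and Slc17a7 were not lowest there in both. Dcx in these libraries was 37.8 CPM in WT replicate 3, between the other WT libraries, and 33.5 CPM in PHF2 t/g replicate 3, the lowest of its group. The ratio of Dcx to counts of Prox1, the factor that specifies granule neurons, ran from 4.65 to 8.06 in WT and from 6.20 to 18.9 in PHF2 t/g, with the groups overlapping (log2 difference 0.69; exact permutation p = 0.3, adjusted 0.36). Replicate numbers have no order and no stated shared origin. Dsp, C1ql2 and the genes of the lower rows of the heat map, below the 8 neurogenesis genes, were chosen for it after their values were seen.

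**Figure D5:**
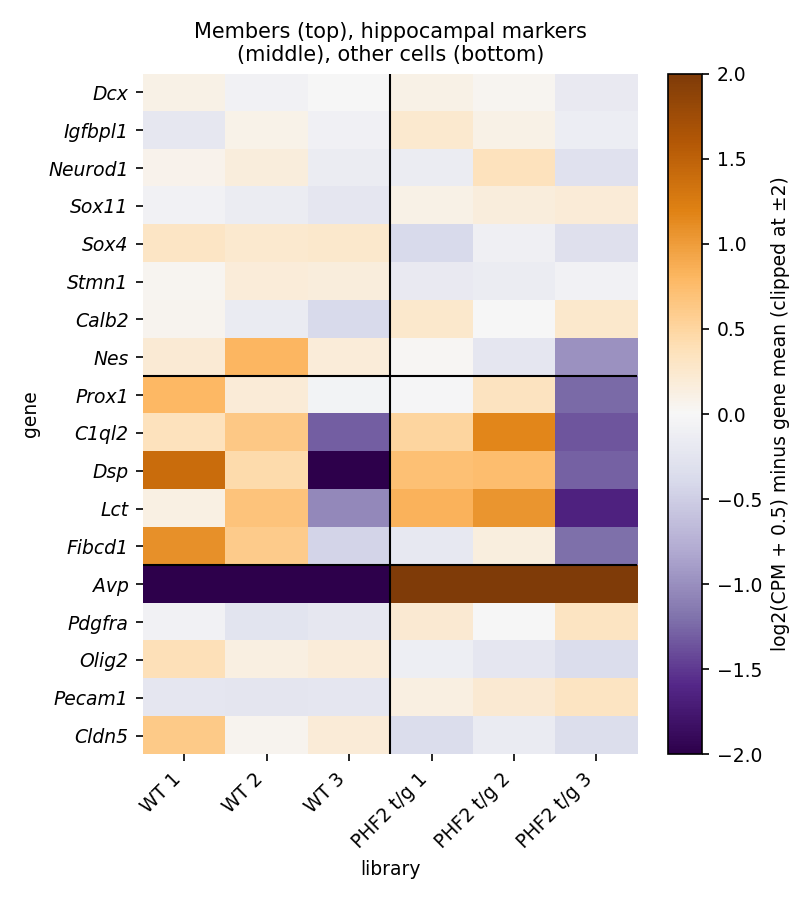
Heat map of log2(CPM + 0.5) minus the gene's mean over the 6 libraries (colour, clipped at ±2); rows are genes and columns libraries. The neurogenesis genes (top), other than Nes, change little from library to library beside C1ql2, Dsp and Lct (middle) and Avp (bottom). The granule neuron markers C1ql2, Dsp and Lct and the hippocampal marker Fibcd1 are low in replicate 3 of both groups. Avp is high in the 3 PHF2 t/g libraries.

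Markers of neighbouring tissue differed between the genotypes to unequal degrees. From each list the gene with the largest difference between group means was also left out of the sum, a choice made after seeing the data. The summed level of 16 hypothalamus markers was 56.3 to 61.0 CPM in PHF2 t/g against 7.40 to 7.61 CPM in WT; of 5 tested, Avp, Oxt, Trh and Irs4 rose (Trh not without PHF2 t/g replicate 1; edgeR adjusted p = 0.0753) and Pomc did not pass, and Otp had 0 counts in all 6 libraries. The sum of 10 leptomeningeal markers was 158 to 176 CPM against 78.7 to 105 CPM, where Mgp rose and 6 of 7 tested genes did not pass. Mgp, at 105 to 119 against 37.6 to 52.7 CPM, made most of this gap, and without it the sums overlapped, at 47.6 to 56.3 against 41.1 to 52.7 CPM. By gene, 6 of the 7 tested lay above 0, with a median log2 fold change of 0.91, and Dcn lay below 0 (−0.34). An unadjusted edgeR p under 0.05 was found for 6 of the 7, against 14.7% of all tested genes. The sums of markers of subventricular zone neuroblasts (160 to 172 CPM against 157 to 163) and of thalamus and habenula, Calb2 among them (193 to 209 against 206 to 240), overlapped between the groups. Without Dlx1, lower in PHF2 t/g (31.9 to 39.9 against 44.2 to 56.5 CPM), the other 8 neuroblast markers summed to 120 to 137 against 104 to 115 CPM and did not overlap. None passed in edgeR, DESeq2 or limma-voom in either list, with 3 of 7 and 2 of 10 at an unadjusted p under 0.05. In the hippocampal list Wfs1, a CA1 marker, rose (log2 fold change 0.49; edgeR adjusted p = 0.0191), but did not pass with any 1 PHF2 t/g library or WT replicate 3 left out. Most of the hippocampal list went the other way: 8 of its 12 genes lay below 0 (46.1% of all tested genes did), with a median of −0.16. Mpped1, Bok and Grp were lower without overlap (−0.19, −0.26 and −0.62) and did not pass. The sum of choroid plexus and ependyma markers was 166 to 568 CPM against 149 to 163. Of the 568 CPM in PHF2 t/g replicate 1, Ttr gave 292; without Ttr that library held 276 CPM, the other PHF2 t/g libraries 164 and 165 and the WT libraries 146 to 159. None of 6 tested genes passed in edgeR, DESeq2 or limma-voom, and 2 had an unadjusted p under 0.05. The hypothalamus sum without Avp (29.6 to 34.1 against 6.93 to 7.57 CPM) and the endothelial sum without Flt1 (158 to 173 against 139 to 156 CPM) were still higher in PHF2 t/g without overlap, and the thalamus sum without Rora and the hippocampal sum without Slc17a7 still overlapped. The part of these tissues in the Sox4, Sox11, Stmn1 and Nes values was not tested. With PHF2 t/g replicate 1 and WT replicate 2 both left out, Sox4 was lower and passed (−0.49; edgeR adjusted p = 0.0331).

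The genes whose profile over the 6 libraries lay nearest to 3 of the members were found among 9238 tested genes whose log2 CPM averaged 3 or more, by the root mean square distance between centred log2 CPM. For Sox4 they were Fbl, the nucleolar methyltransferase fibrillarin (distance 0.03), Smim20 (0.04) and Lig1, a DNA ligase (0.07). For Sox11 they were Ftsj1, Lemd2 and Slco3a1 (0.04 each), and for Dcx Pex5l (0.03), Smarcad1 and Pls3 (0.04 each). With 6 libraries and this many genes, such nearness is a description.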

How the data were processed

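Hippocampal RNA of 3 PHF2 t/g and 3 WT libraries was sequenced as 3′ end tags (QuantSeq), per the labels' protocols. The submitters' processing notes name Bowtie2, edgeR and mm10; the counting program, annotation and strand setting were not given there. Each library's deposited file holds raw counts of 23282 rows by gene symbol (44 repeat a symbol and were kept apart). Groups and replicate numbers follow the sample titles.

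Genes passing filterByExpr (12831) were scaled by TMM and tested with edgeR 4.0.16 in R 4.3.3 (robust quasi-likelihood, genotype alone), adjusted by Benjamini-Hochberg at 0.05; standard errors come from the fold change and its F statistic. The procedure was also run on counts simulated from the fitted dispersions. That simulation held no outlying library, so it cannot show how the test behaves with one. Libraries of a group differed by more than sampling noise (chi-square of at least 2.82 per gene). WT replicate 2 stood furthest apart, at 8.98 from WT replicate 1 and 9.22 from WT replicate 3. WT replicates 1 and 3 were at 3.50, and the PHF2 t/g pairs at 2.82 to 4.04. The cause was not tested. Counting intervals and the floor of 3 counts include no other error.

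The 9 genes, the lists and the tests were chosen with earlier results of these data known. Named are the members; up to 4 called genes of each pathway list, otherwise the 2 of smallest p; up to 3 called markers of each marker list, and defining markers at 0; and the 3 profiles nearest to Dcx, Sox4 and Sox11. Other genes were named after their values were seen. Alternatives were DESeq2's size factors, library size alone, DESeq2 1.42.0, limma-voom (limma 3.58.1), no low-count filter, CPM of 1 or more in 3 libraries, a non-robust fit, a replicate block, 1 or 2 libraries left out, the rows Rn45s, Lrrc17 and Akap5 left out, and a threshold of 0.10. Promoters (6 of 9 members matched) and coordinates are RefSeq's (GRCm38.p6), overlaps GENCODE M21's.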

Additional observations from a re-analysis of the deposited data

How the results depend on the processing

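The 291 genes called became 162 by limma-voom, 606 without the low-count filter, 149 in the fit that was not robust, 140 without a pair of libraries, WT replicate 2 and PHF2 t/g replicate 1, 547 at an adjusted p of 0.10, and 49 to 392 with 1 library left out. Of the called genes 34.4% were higher with TMM, 74.7% with library size alone and 18.5% with DESeq2. DESeq2 gave an adjusted p to 6234 genes, against 12831 with the other 2 settings. Over all tested genes the median log2 fold change was 0.02 (TMM) or 0.12 (library size alone). The 1 called member became 2 with library size alone, DESeq2, no filter or a threshold of 0.10, and 0 to 1 with 1 library left out. The 1 called stem cell gene became 0 with library size alone, in the fit that was not robust and without the pair, and 0 to 1 with 1 left out. The 2 called immature neuron genes became 1 with library size alone, 4 without the filter and 1 to 3 with 1 library left out. The 0 called draxin and netrin genes became 1 with library size alone, 2 without the filter, 2 at 0.10 and 0 to 1 with 1 left out. The 2 called niche genes became 1 in limma-voom and in the fit that was not robust, 4 without the filter or at 0.10, and 1 to 4 with 1 left out. Proliferation, neuroblast and granule neuron lists stayed at 0 in all 17 alternatives.

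With library size alone Sox11 passed (0.40), and Dcx (0.09) and Neurod1 (0.06) changed sign. Stmn1 passed with DESeq2 and without the filter (−0.27 in both). Without the pair Neurod1 was 0.12 and Dcx −0.12. With 1 library left out the values ran from −0.08 to 0.06 for Dcx, −0.26 to 0.08 for Neurod1 and −0.63 to −0.47 for Sox4. The causes were not tested. DESeq2 gave no adjusted p for Igfbpl1, Neurod1, Calb2 or Nes.

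Deviations of same-numbered libraries had correlations across genes of −0.0044, 0.123 and 0.0846 for replicates 1, 2 and 3. PHF2 t/g replicates 2 and 3 each correlated best with the WT library of the same number. PHF2 t/g replicate 1 was near 0 with WT replicates 1, 2 and 3 (−0.0044, 0.0139 and −0.0127). With a replicate block 299 genes were called, with no change of call among the members. With 0 to 37 counts per library, Draxin, Nes and Igfbpl1 are limited by depth.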

Other observations

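Fgf2, Dkk1 and Disc1, all of the niche list, had 0 counts in each of the 6 libraries. A count of 0 allows up to 0.571 CPM in the shallowest library, from 3 counts.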
